A study of Mus musculus with 2 samples.

Results

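The genes described here encode nuclear subunits of mitochondrial oxidative phosphorylation, in complexes I, III and IV of the respiratory chain and in the ATP synthase, complex V. They were chosen by symbol: genes whose probe sets carry a single gene symbol beginning with Ndufa, Ndufb, Ndufc, Ndufs or Ndufv and a number, with Uqcr, with Cox4 to Cox8, or with Atp5. The rule found 73 of the 11807 genes measured, read by 121 of 22716 probe sets, and used no measured value. Complex I had 33 of these genes, complex III 7, complex IV 16 and complex V 17. A probe set is a group of short probes that together read a transcript.

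The study cultured naive CD4+ T cells of female C57BL/6J mice, taken from spleen and lymph nodes, on plate-bound antibodies to CD3 and CD28 for 60 h. The tested culture received murine recombinant IL-27 at 25 ng/ml, a cytokine that signals through STAT transcription factors. The other culture received none. Each group was read on 1 array, so no test was run, and no difference below can be set against the spread between cultures. This number of arrays limits the precision throughout.

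In the respiratory chain, complex I takes electrons from NADH and complex III passes them from ubiquinol to cytochrome c. Complex IV gives them to oxygen. These complexes pump protons across the inner membrane, and ATP synthase uses the returning protons to make ATP. Activated T cells draw heavily on glycolysis while keeping oxidative phosphorylation running, and resting T cells rely mainly on oxidative phosphorylation. The catalytic cores of complexes I, III and IV also contain proteins made from mitochondrial DNA, which are not analysed here.

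Intensities are the authors' RMA values on a linear scale, and a difference is the log2 intensity of the array labelled IL-27-treated (the IL-27-labelled array) minus that of the array labelled untreated (the untreated-labelled array). Each gene is represented by its brightest probe set, judged by the mean of both log2 values. Intensities of different probe sets are not comparable as amounts of RNA, so only the values of a probe set on the arrays are compared. A floor for background was set at an intensity of 21.2, the 95th percentile of 43 genes of other tissues, and 7095 genes were brighter than that on one array or both. Of the 73 subunit genes, 72 did so, 70 of them on both arrays.

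The arrays had similar median intensities, 32.4 on the IL-27-labelled array and 33.3 on the untreated-labelled array. Of 9 T cell markers measured, 9 were above the floor, 3 of them higher and 6 lower, with a median difference of -0.15. Cd4 had intensities of 395 on the IL-27-labelled array and 343 on the untreated-labelled array, and Cd5 had 1639 on the IL-27-labelled array and 2650 on the untreated-labelled array, a difference of -0.69. Among markers of other cells, 1 of 2 CD8 T cell genes, 1 of 6 B cell genes, 2 of 7 macrophage genes, 1 of 6 granulocyte and mast cell genes, 0 of 3 NK cell genes and 0 of 2 erythroid genes were above it. One of these was Cd8b1, with intensities of 176 on the IL-27-labelled array and 119 on the untreated-labelled array, while Cd8a was below the floor on both. Another was the macrophage gene Cd68, with 27.5 on the IL-27-labelled array and 54.9 on the untreated-labelled array. Their part in the results was not tested. Of 12 known IL-27 response genes above the floor, 6 were lower by 2-fold or more on the IL-27-labelled array and 0 were higher by as much. Among all genes above the floor, 2.68% were lower and 1.45% higher by 2-fold or more. Socs3, the feedback inhibitor of STAT3 signalling, which IL-27 is known to raise, had 186 on the IL-27-labelled array and 1122 on the untreated-labelled array. Il10, Il21 and Prdm1, also known to be raised by IL-27, were likewise lower on the IL-27-labelled array. Directions below follow the labels. Whether the labels were exchanged was not tested, and an exchange would turn every sign below.

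Subunit genes differed little between the arrays. Of the 72 above the floor, 0 were higher by 2-fold or more and 0 lower by as much, where 1.45% and 2.68% of all genes above the floor were. At 1.5-fold, 1 was higher and 1 lower, against 5.09% and 7.17% of all genes, and at 1.2-fold 7 were higher and 4 lower, against 20.9% and 20.6%. When each array's median was subtracted, the counts at 1.2-fold were 11 higher and 2 lower, against 24.3% and 18.1% of all genes. In all, 61 of 72 (84.7%) were less than 1.2-fold apart, against 58.4% of all genes, and 70 of 72 (97.2%) less than 1.5-fold apart, against 87.7% of all genes.

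Bright probe sets differ less than dim ones on these arrays, and most subunit genes are bright. Among genes with a mean log2 level of at least 10, an intensity of 1024, 71.6% of all 946 genes were less than 1.2-fold apart, and 52 of the 59 subunit genes (88.1%) were. The median difference over the 72 genes was 0.041 on the log2 scale, with quartiles of -0.062 and 0.11, and the median over all genes above the floor was 0.015, with quartiles of -0.21 and 0.22. With the mean of all probe sets of a gene in place of the brightest, both medians were 0.015. More subunit genes lay on the higher side, 43 of 72 against 51.9% of all genes. That count was 34 after loess normalization, which removes a trend of the difference with the level, against 48.3% of all genes. It was 49 when each array's median was subtracted, against 56.5% of all genes. In bulk RNA, a change in the share of cells of some kind and a change in RNA per cell cannot be told apart.

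**Figure D1:**
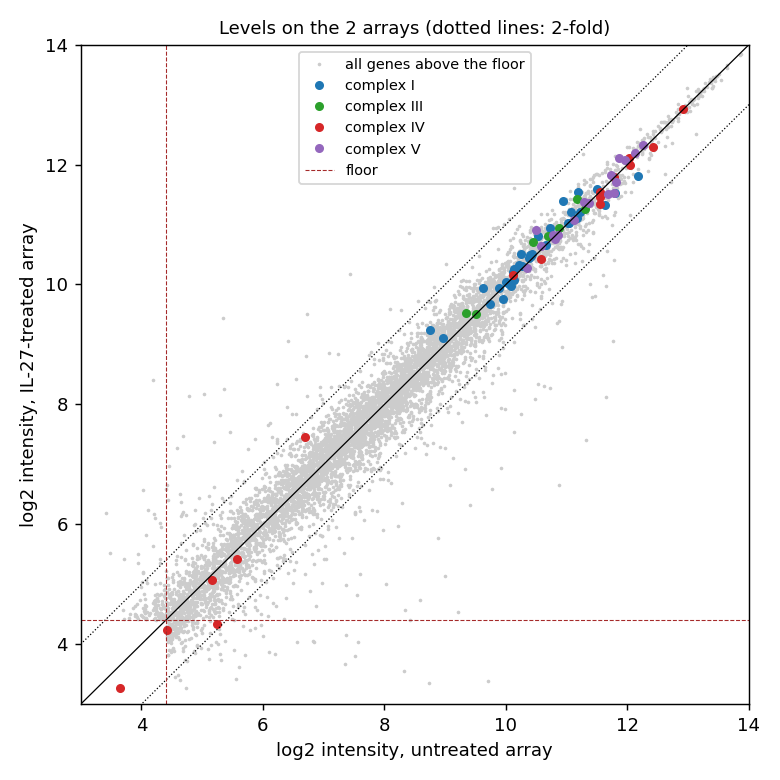
Log2 intensity of each gene on the untreated array (horizontal axis) and on the IL-27-treated array (vertical axis). Grey points are the 7095 genes above the floor, coloured points the 73 subunit genes by complex; most subunit genes sit close to the diagonal at high levels, and the 6 red points of lowest level are tissue isoforms of complex IV.

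Probe sets of the same gene gave a measure of technical error. Over 2357 genes with several probe sets above the floor, the median gap between the highest and the lowest difference of a gene's probe sets was 0.21 on the log2 scale. For the 31 subunit genes with several, it was 0.15. Their probe sets all lay on the same side of 0 in 17 of the 31 genes and on both sides in 14. Over all 2357 genes these counts were 1614 and 743, so the subunit genes agreed in direction less often. This error covers probes only, not cultures or hybridizations. The medians of the complexes were 0.050 for I, 0.11 for III, -0.087 for IV and 0.043 for V. Of the 72 genes, 17 (23.6%) differed by more than 0.21, the median gap over all genes, against 50.4% of all genes.

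**Figure D2:**
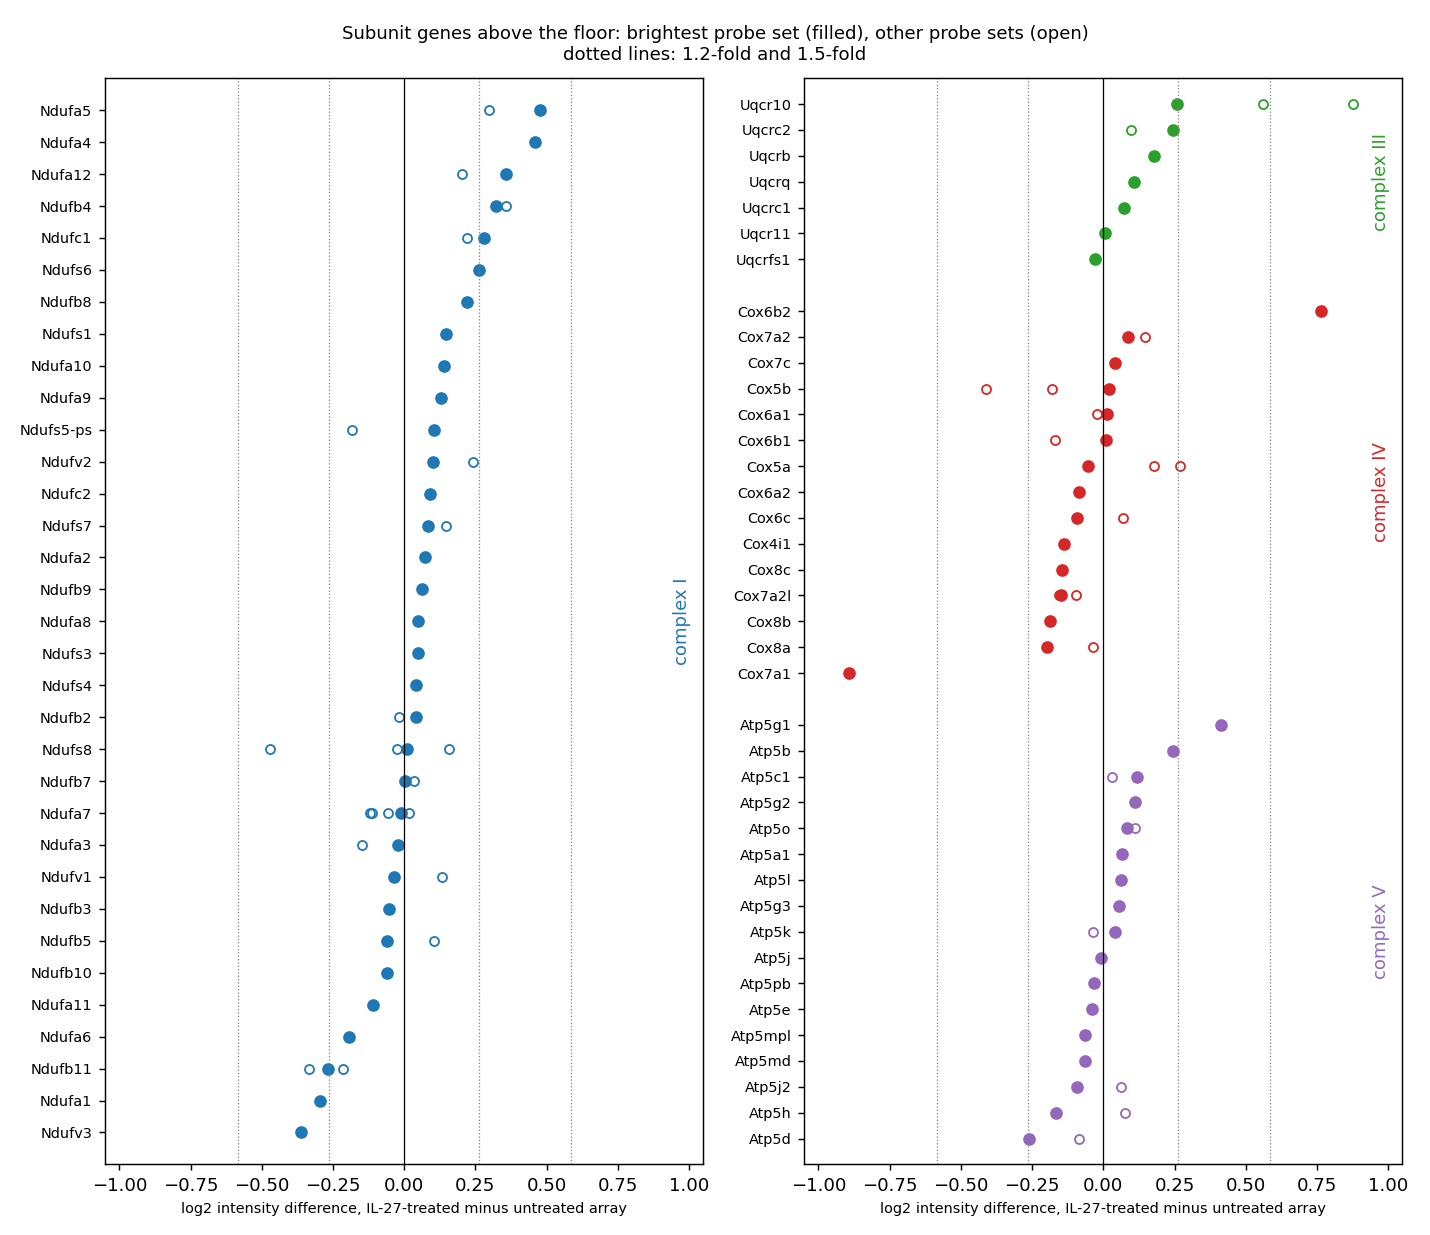
Log2 difference, IL-27-treated minus untreated array, of each subunit gene above the floor, ordered within its complex. Filled points are the brightest probe set of a gene and open points its other probe sets above the floor; dotted lines mark 1.2-fold and 1.5-fold, and only Cox6b2 and Cox7a1 have a filled point beyond 1.5-fold.

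Nuclear genes of these complexes are known to share promoter elements for NRF1, ETS factors such as GABP, YY1 and the ERR receptors. A window of 250 bases before to 50 after the gene start was taken from RefSeq (GRCm38.p6) for the 59 of 73 genes that matched by symbol. Searched on both strands, the NRF1 pattern, which stands in capitals in the Ndufa5 promoter below, was held by 14 of the 59 (23.7%), against 4.6% of all 32851 promoters in the table and 13.1% of the genes above the floor. The ETS pattern CCGGAAG was held by 13 (22%), against 8.86% of all promoters and 23.3% of the genes above the floor. The YY1 pattern AAGATGGC was held by 10 (16.9%), against 2.75% and 6.06%, and the ERR pattern AAGGTCA by 6 (10.2%), against 4.72% and 3.9%. The patterns can overlap, and a match is not a bound site. A gene counted as holding a pattern if any of its listed promoters matched, while the shares of all promoters count each promoter apart. Only the shares of genes above the floor were counted in the same way as the members. Any of the 4 patterns was held by 33 of the 59 (55.9%), against 18.9% of all promoters and 39.4% of the genes above the floor. These 33 genes had a median difference of 0.041 and the 26 holding none had -0.020. By single pattern, genes with and without it had medians of 0.064 and 0.0043 for NRF1, and 0.063 and 0.012 for YY1. For ERR they had 0.050 and 0.011. The order was the reverse for ETS, 0.0043 with it and 0.046 without. None of these contrasts was tested. The bases before the start are printed below for 6 genes, 5′ to 3′ on the gene's strand, in lower case with matches of these patterns in capitals. They are the gene with the largest positive difference in each complex, the lowest of complex I, and Cox6a1, which holds several matches.

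Complex I ranged from -0.36 to 0.48 over 33 genes, all of them above the floor. All 33 were less than 1.5-fold apart, against 87.7% of all genes. Of these, 22 (66.7%) lay on the higher side, against 51.9% of all genes. At 1.2-fold, 5 were higher and 3 were lower, against 20.9% and 20.6% of all genes. The genes beyond 1.2-fold in either direction were accessory subunits, which surround the catalytic core and support its assembly and stability. The 6 measured core subunits lay between -0.035 and 0.15.

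Among the core subunits, Ndufv1, which binds NADH and flavin, had intensities of 1035 on the IL-27-labelled array and 1061 on the untreated-labelled array, a difference of -0.035, and its dimmer probe set gave 0.13. Ndufv2, an iron-sulphur subunit beside it, had 3103 on the IL-27-labelled array and 2895 on the untreated-labelled array, a difference of 0.10, with 0.24 from its other probe set. Ndufs1, the largest iron-sulphur subunit of the peripheral arm, had 551 on the IL-27-labelled array and 498 on the untreated-labelled array, a difference of 0.15. By their brightest probe sets, these electron input subunits thus differed by less than the gap between probe sets.

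In the ubiquinone-reducing part, Ndufs3 had 1416 on the IL-27-labelled array and 1369 on the untreated-labelled array, a difference of 0.049. Ndufs7, which carries the last iron-sulphur cluster before ubiquinone, had 1179 on the IL-27-labelled array and 1112 on the untreated-labelled array, 0.084, and its other probe set gave 0.15. Ndufs8 had 2089 on the IL-27-labelled array and 2074 on the untreated-labelled array, 0.011. Its other 3 probe sets gave 0.16, -0.024 and -0.47, the last from a probe set close to the floor, so no direction can be read for it.

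The largest positive difference in complex I was that of Ndufa5, an accessory subunit of the peripheral arm. It had intensities of 603 on the IL-27-labelled array and 433 on the untreated-labelled array, 1.39-fold or 0.48 on the log2 scale, and its other probe set gave 0.30. Ndufb4, an accessory subunit of the membrane arm, had 989 on the IL-27-labelled array and 791 on the untreated-labelled array, a difference of 0.32, and its other probe set gave 0.36. These were the only 2 of the 31 subunit genes with several probe sets in which every probe set above the floor passed 1.2-fold on the higher side, and 0 genes had every one past it on the lower side. The share of all genes that did so was not computed, so these counts cannot be set against a background. The promoter of Ndufa5 (GRCm38.p6, chr6:24527527-24527776, minus strand, before the first of 2 listed starts) holds an NRF1 match.
Ndufa5: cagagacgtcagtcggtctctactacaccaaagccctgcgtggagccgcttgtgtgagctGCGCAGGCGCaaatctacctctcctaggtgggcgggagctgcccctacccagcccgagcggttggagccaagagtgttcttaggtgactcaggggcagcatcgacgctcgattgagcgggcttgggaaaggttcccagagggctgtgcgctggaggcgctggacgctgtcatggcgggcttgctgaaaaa

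Ndufa4 had 2693 on the IL-27-labelled array and 1959 on the untreated-labelled array, a difference of 0.46 from a single probe set. It is named as a complex I subunit, and was later assigned to complex IV. Counted with complex IV, it moves that complex's median to -0.070 and leaves that of complex I at 0.049. Ndufa12, an accessory subunit of the peripheral arm, had 2997 on the IL-27-labelled array and 2336 on the untreated-labelled array, 0.36, by a probe set whose design may also bind related transcripts, and 0.20 by its next. Ndufc1, a small membrane arm subunit, differed by 0.28 and 0.22 by its probe sets, and Ndufs6, an accessory zinc-binding subunit, by 0.26, just short of 1.2-fold.

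On the lower side of complex I were Ndufv3, Ndufa1 and Ndufb11. Ndufv3, a small accessory subunit of the peripheral arm, had intensities of 3583 on the IL-27-labelled array and 4604 on the untreated-labelled array, a difference of -0.36 from a single probe set. Ndufa1, an X-linked membrane arm subunit, had 2577 on the IL-27-labelled array and 3161 on the untreated-labelled array, -0.29. Ndufb11, also X-linked and in the membrane arm, had 2964 on the IL-27-labelled array and 3571 on the untreated-labelled array, -0.27, and its other probe sets gave -0.33 and -0.22. All 3 of its probe sets thus lay on the lower side. The remaining genes of complex I lay between -0.19 for Ndufa6 and 0.22 for Ndufb8, both accessory subunits. The promoter of Ndufv3 (GRCm38.p6, chr17:31519865-31520114, plus strand) holds none of the 4 patterns.
Ndufv3: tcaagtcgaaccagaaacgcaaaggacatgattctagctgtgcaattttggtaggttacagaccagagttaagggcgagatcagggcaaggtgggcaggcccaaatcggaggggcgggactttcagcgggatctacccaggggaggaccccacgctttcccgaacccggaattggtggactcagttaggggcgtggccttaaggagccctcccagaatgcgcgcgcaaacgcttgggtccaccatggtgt

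By class, the 12 Ndufa genes had a median of 0.061 and ranged from -0.29 to 0.48. The 11 Ndufb and Ndufc genes had a median of 0.041, from -0.27 to 0.32, and the 4 accessory Ndufs and Ndufv genes a median of 0.073, from -0.36 to 0.26. The 6 core genes had a median of 0.066 and the smallest SD across genes, 0.065, where that of the Ndufa genes was 0.24. The classes thus had nearly the same median and different widths, with no test of either. The symbol Ndufs5-ps denotes a pseudogene. Its probe sets, which gave 0.10 and -0.18, may also read the Ndufs5 transcript, and without it the median of complex I was 0.049. Ndufa13, Ndufb1 and Ndufb6 are not analysed here.

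Complex III had 6 of its 7 genes on the higher side, against 51.9% of all genes. Its median difference was 0.11, with a range from -0.029 to 0.26. All 7 were less than 1.2-fold apart, against 58.4% of all genes. The gene on the lower side was Uqcrfs1, the Rieske iron-sulphur protein that hands electrons towards cytochrome c, with 2462 on the IL-27-labelled array and 2512 on the untreated-labelled array. The core proteins of the matrix side, relatives of the mitochondrial processing peptidase, were Uqcrc1, with 1971 on the IL-27-labelled array and 1875 on the untreated-labelled array, a difference of 0.072, and Uqcrc2. Uqcrc2 had 2743 on the IL-27-labelled array and 2315 on the untreated-labelled array, 0.24, and 0.097 by its other probe set.

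Of the small subunits, Uqcr10 differed most. It had intensities of 1669 on the IL-27-labelled array and 1394 on the untreated-labelled array, a difference of 0.26 on the log2 scale. Its other probe sets gave 0.56, from intensities of 535 on the IL-27-labelled array and 362 on the untreated-labelled array, and 0.88, from 365 on the IL-27-labelled array and 199 on the untreated-labelled array. The 3 probe sets lay on the same side of 0, with the smallest difference from the brightest, and their gap of 0.62 exceeded the typical one. Uqcrb, Uqcrq and Uqcr11 differed by 0.18, 0.11 and 0.0043. Cytochrome c1, the other redox subunit made in the nucleus, lies outside the rule and was looked up after the values were seen: Cyc1 had 1684 on the IL-27-labelled array and 1492 on the untreated-labelled array, a difference of 0.17. Uqcrh is not analysed here. The promoter of Uqcr10 (GRCm38.p6, chr11:4704345-4704594, minus strand) holds none of the patterns.
Uqcr10: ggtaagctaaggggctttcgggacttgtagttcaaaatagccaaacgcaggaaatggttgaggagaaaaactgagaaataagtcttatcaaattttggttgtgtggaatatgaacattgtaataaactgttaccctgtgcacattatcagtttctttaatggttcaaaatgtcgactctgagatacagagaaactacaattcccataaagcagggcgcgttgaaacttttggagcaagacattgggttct

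Complex IV split into genes used in most tissues and isoforms known from muscle, heart, lung or testis. The 10 common genes, Cox7a2l included, had a median of -0.022 and ranged from -0.20 to 0.085. Of these, 5 were on the higher side, against 51.9% of all genes, and 5 on the lower side. All 10 were less than 1.2-fold apart, against 58.4% of all genes. The median of -0.087 over all 15 genes above the floor thus rests in part on dim isoforms, and it was 0.0092 over the 11 genes above 4 times the floor.

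Cox6a1, whose probe set had the highest mean intensity among the subunit genes, stood at 7787 on the IL-27-labelled array and 7724 on the untreated-labelled array, a difference of 0.012. Cox4i1, the regulatory subunit through which ATP restrains the enzyme, had 5004 on the IL-27-labelled array and 5500 on the untreated-labelled array, -0.14. Cox8a had 2608 on the IL-27-labelled array and 2991 on the untreated-labelled array, -0.20, and -0.037 by its other probe set. Cox7a2l, which helps complexes III and IV to join in supercomplexes, differed by -0.15, and its other probe sets gave -0.16 and -0.097. Cox7a2 had 4411 on the IL-27-labelled array and 4158 on the untreated-labelled array, 0.085, and 0.15 by its other probe set. Cox5a had probe sets at -0.053, 0.18 and 0.27, and Cox5b at 0.021, -0.18 and, close to the floor, -0.41, so neither has a settled direction. Cox6b1 differed by 0.0092, with -0.17 from its other probe set, and Cox6c by -0.092, with 0.067 from its other. Cox7c differed by 0.042. The promoter of Cox6a1 (GRCm38.p6, chr5:115348959-115349208, minus strand) holds a pair of NRF1 matches and an ETS match.
Cox6a1: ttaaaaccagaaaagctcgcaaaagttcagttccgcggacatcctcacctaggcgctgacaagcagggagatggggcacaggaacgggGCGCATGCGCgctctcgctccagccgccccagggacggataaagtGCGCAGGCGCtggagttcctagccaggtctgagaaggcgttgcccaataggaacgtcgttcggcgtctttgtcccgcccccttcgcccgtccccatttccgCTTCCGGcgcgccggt

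Both genes beyond 1.5-fold were tissue isoforms. Cox6b2, the testis isoform of subunit VIb, had intensities of 176 on the IL-27-labelled array and 103 on the untreated-labelled array, 1.70-fold or 0.76 on the log2 scale, from a single probe set. Both values were above 4 times the floor, an intensity of 84.9. Its common counterpart Cox6b1 had 2998 on the IL-27-labelled array and 2979 on the untreated-labelled array. The promoter of Cox6b2 (GRCm38.p6, chr7:4753095-4753344, minus strand) holds none of the patterns.
Cox6b2: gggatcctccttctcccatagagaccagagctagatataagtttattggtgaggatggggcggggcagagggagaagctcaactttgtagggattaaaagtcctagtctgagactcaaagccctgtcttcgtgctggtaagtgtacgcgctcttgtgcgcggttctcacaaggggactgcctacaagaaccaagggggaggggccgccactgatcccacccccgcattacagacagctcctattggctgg

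Cox7a1, the heart and muscle isoform, had 20.3 on the IL-27-labelled array, below the floor, and 37.7 on the untreated-labelled array. The value on the untreated-labelled array was 1.78-fold above the floor, and the measured difference was -0.89. Of the 43 genes of other tissues that set the floor, 4 were above it, all 4 of them lower on the IL-27-labelled array. The largest difference among these 4 was -1.10, for Tnni3. A gene taken as background thus differed by more, so no decrease can be read for Cox7a1. Cox6a2, another heart and muscle isoform, had 33.6 on the IL-27-labelled array and 35.7 on the untreated-labelled array, and Cox8c, a testis isoform, 42.9 on the IL-27-labelled array and 47.4 on the untreated-labelled array. Cox8b, the muscle isoform of subunit VIII, had 18.8 on the IL-27-labelled array and 21.4 on the untreated-labelled array, so it passed the floor narrowly and on the untreated-labelled array alone. Cox4i2, the lung isoform, had 9.7 on the IL-27-labelled array and 12.5 on the untreated-labelled array and was the gene below the floor on both. These 5 were the only subunit genes not above 4 times the floor on either array.

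Complex V had a median of 0.043 over 17 genes, 9 of them (52.9%) on the higher side, against 51.9% of all genes. At 1.2-fold, 1 of the 17 was higher and 0 were lower, against 20.9% and 20.6% of all genes. The 17 genes ranged from -0.26 to 0.41. The F1 head, where ATP is made, had both ends of its 5 genes near 1.2-fold. Atp5b, the catalytic beta subunit, had 4418 on the IL-27-labelled array and 3724 on the untreated-labelled array, a difference of 0.25. Atp5d, the delta subunit of the rotor, had 2940.3 on the IL-27-labelled array and 3523 on the untreated-labelled array, -0.26, and -0.084 by its other probe set.

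The other F1 genes lay between these. Atp5a1, the alpha subunit, had 4689 on the IL-27-labelled array and 4484 on the untreated-labelled array, 0.065. Atp5c1, the gamma subunit that forms the central shaft, had 4313 on the IL-27-labelled array and 3972 on the untreated-labelled array, 0.12, and 0.030 by a dimmer probe set. Atp5e, the epsilon subunit, had 2169 on the IL-27-labelled array and 2228 on the untreated-labelled array, -0.039. Genes of subunits that stand in fixed ratio in the F1 head thus did not differ in a single direction.

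Atp5g1, Atp5g2 and Atp5g3 each encode subunit c of the proton-driven ring, with the same mature protein and different import sequences. Atp5g1 had intensities of 1913 on the IL-27-labelled array and 1438 on the untreated-labelled array, 1.33-fold or 0.41 on the log2 scale, from a single probe set. Atp5g2 had 3649 on the IL-27-labelled array and 3380 on the untreated-labelled array, 0.11, and Atp5g3 had 5107 on the IL-27-labelled array and 4910 on the untreated-labelled array, 0.057. All 3 were on the higher side, against 51.9% of all genes. Atp5g1 alone was at least 1.2-fold higher, against 20.9% of all genes. The promoter of Atp5g1 (GRCm38.p6, chr11:96075632-96075881, minus strand) holds none of the patterns.
Atp5g1: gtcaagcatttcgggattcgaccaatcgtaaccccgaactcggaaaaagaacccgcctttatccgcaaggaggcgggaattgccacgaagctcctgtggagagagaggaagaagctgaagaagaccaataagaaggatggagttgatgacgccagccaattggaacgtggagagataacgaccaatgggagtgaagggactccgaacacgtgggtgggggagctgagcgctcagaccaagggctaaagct

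The peripheral stalk, which holds the head still while the rotor turns, had a median of -0.022. In it, 1 of 4 genes was on the higher side, against 51.9% of all genes. Atp5h, subunit d, differed by -0.17 and by 0.078 by its other probe set. Atp5o, the OSCP subunit, differed by 0.085 and 0.11, Atp5pb, subunit b, by -0.034, and Atp5j, coupling factor 6, by -0.0098. The 5 small membrane subunits Atp5j2, Atp5k, Atp5l, Atp5md and Atp5mpl had a median of -0.063 and ranged from -0.093 to 0.061. All 9 of these genes were less than 1.2-fold apart, against 58.4% of all genes.

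**Figure D3:**
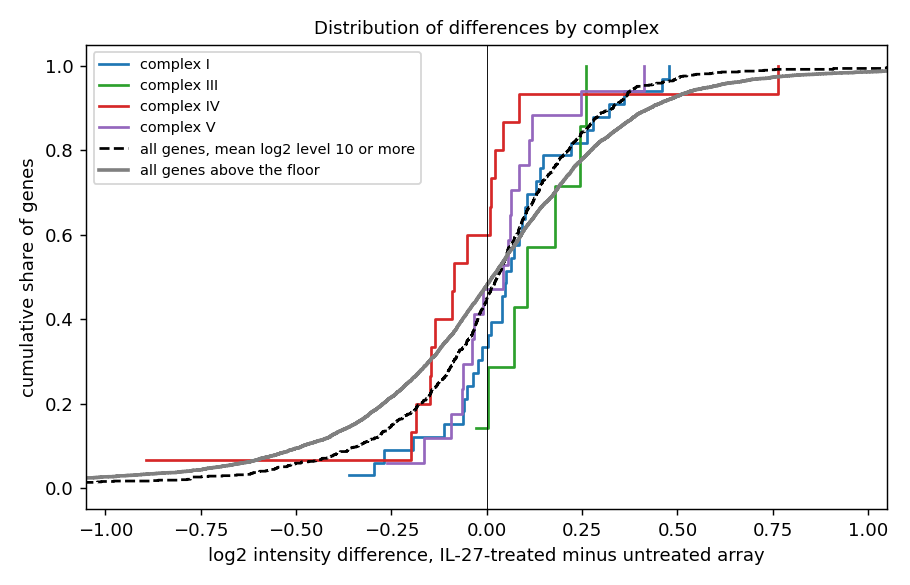
Cumulative share of genes (vertical axis) at or below each log2 difference, IL-27-treated minus untreated array (horizontal axis), for each complex, for all genes above the floor (grey) and for the 946 genes with a mean log2 level of 10 or more (dashed). The curve of complex III lies to the right of 0 for 6 of 7 genes, that of complex IV has 9 of 15 genes to the left of 0, and the long flat ends of the complex IV curve are Cox7a1 and Cox6b2.

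Genes that work with the complexes were described from lists of pathway genes. The lists here and below were chosen with earlier results of these data known. Their counts are thus descriptive, and the shares of all genes beside them are not an independent background. In the list of complex II and other entries for electrons, 6 of 9 genes above the floor were higher by any amount, against 51.9% of all genes. The median of this list was 0.091. The succinate dehydrogenase subunits of complex II, Sdha, Sdhb, Sdhc and Sdhd, differed by 0.0014 (0.28 by the other Sdha probe set), 0.12, -0.091 and -0.042, and Cycs, cytochrome c, by 0.091. Dhodh, the pyrimidine synthesis enzyme that feeds electrons to ubiquinone, had 152 on the IL-27-labelled array and 90.4 on the untreated-labelled array, 0.75, and its other probe set gave 0.67. Gpd2, the glycerol phosphate dehydrogenase of the inner membrane, differed by -0.29, Etfa, an electron transfer flavoprotein subunit, by 0.24.

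Assembly factors build the complexes and are not part of them. They were pooled here with Atpif1, an inhibitor of complex V and not an assembly factor. The pool listed 50 genes, of which 30 were measured, all of them above the floor. Of the 30, 23 were on the higher side, against 51.9% of all genes. Of these 30, 9 passed 1.2-fold on the higher side, Atpif1 among them, and 2 on the lower, against 20.9% and 20.6% of all genes. Their median was 0.14, where the subunits' median was 0.041 and that of all genes 0.015. The difference between this pool and the subunits was not tested. For complex I, 7 of 9 were higher, with Timmdc1 and Ndufaf5 both at 0.51 and Ndufaf4 at 0.35 and, by its other probe set, 0.40. Ecsit differed by 0.21. For complex III, 3 of 4 were higher, with Uqcc1 at 0.25, Uqcc2 at -0.19, Ttc19 at 0.15 and Bcs1l at 0.12. Ttc19 was close to the floor, with 23.8 on the IL-27-labelled array and 21.5 on the untreated-labelled array.

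For complex IV, assembly factors had a median of 0.17, and 11 of 14 were higher, against 51.9% of all genes. Lrpprc, which stabilises mitochondrial messenger RNA, had 230 on the IL-27-labelled array and 166 on the untreated-labelled array, a difference of 0.47. Coa7 differed by 0.46, and Cox17, a copper chaperone, by 0.44 from intensities of 2767 on the IL-27-labelled array and 2033 on the untreated-labelled array. Pet100 lay on the other side at -0.43. For complex V, Tmem70, which helps to build the c ring, had 586 on the IL-27-labelled array and 376 on the untreated-labelled array, 0.64. Atpif1, the inhibitor that stops the synthase from running backwards, differed by 0.27, and the assembly factor Atpaf2 by -0.060.

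Regulators of mitochondrial biogenesis had a median of 0.19, and 10 of 12 genes were higher by any amount, against 51.9% of all genes. Tfb1m, which modifies mitochondrial ribosomal RNA, had 267 on the IL-27-labelled array and 170 on the untreated-labelled array, 0.65, and 0.58 by its next probe set. The coactivators Ppargc1b and Pprc1 differed by 0.51 and 0.44. Gabpb1, a partner chain of the ETS factor GABP, differed by 0.49, and by 0.25 by its other probe set. Nrf1, whose pattern was searched above, differed by -0.021, with 0.12 and 0.40 from its dimmer probe sets, and Gabpa by 0.17, with -0.11 from its dimmer probe set.

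A list of mitochondrial carriers and outer membrane channels had a median of 0.15 over 7 genes above the floor. In that list, 6 of the 7 were higher by any amount, against 51.9% of all genes. In it, the phosphate carrier Slc25a3 differed by 0.15, and the ADP/ATP carriers Slc25a4 and Slc25a5 by 0.12 and 0.046. The channel genes of the outer membrane, Vdac2, Vdac1 and Vdac3, differed by 0.29, -0.22 and 0.20, and Slc25a13, an aspartate-glutamate carrier, by 0.21. The list of mitochondrial DNA and RNA maintenance had a median of 0.0035 over 9 genes, with Ssbp1, a single-strand DNA binding protein, at 0.40, Fastkd2 at 0.37, Pnpt1 at 0.24 and Mterf3 at 0.20. The list of inner membrane, chaperone and protease genes also held Tfrc, the transferrin receptor, which is none of these. The median of that list was 0.10, and 11 of 15 genes were higher, against 51.9% of all genes. Tfrc, at 0.21, was among the 11. Phb, prohibitin, differed by 0.36 and the chaperone Hspa9 by 0.34, while the proteases Afg3l2 and Lonp1 differed by -0.67 and -0.47. Both probe sets of Afg3l2 lay on the lower side, the dimmer at -0.46.

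**Figure D4:**
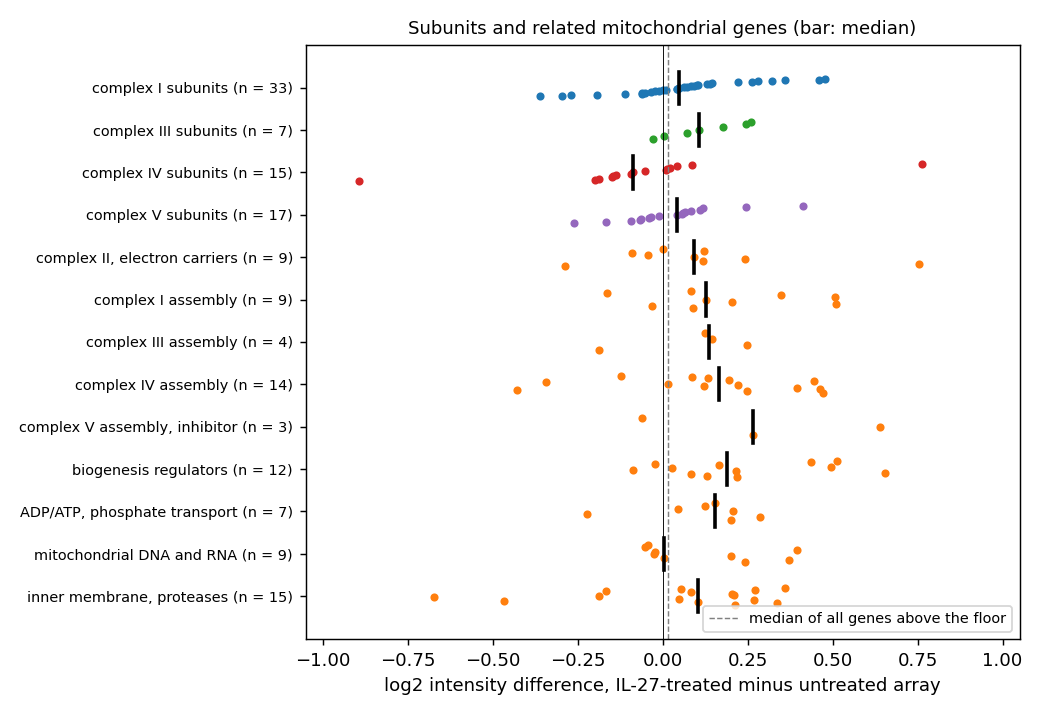
Log2 difference, IL-27-treated minus untreated array (horizontal axis), of each gene above the floor in the 4 complexes and in 9 lists of related mitochondrial genes (rows). Black bars are medians and the dashed line is the median of all genes, 0.015; the bars of the assembly and regulator lists lie between 0.13 and 0.27, and those of the complexes between -0.087 and 0.11.

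**Figure D5:**
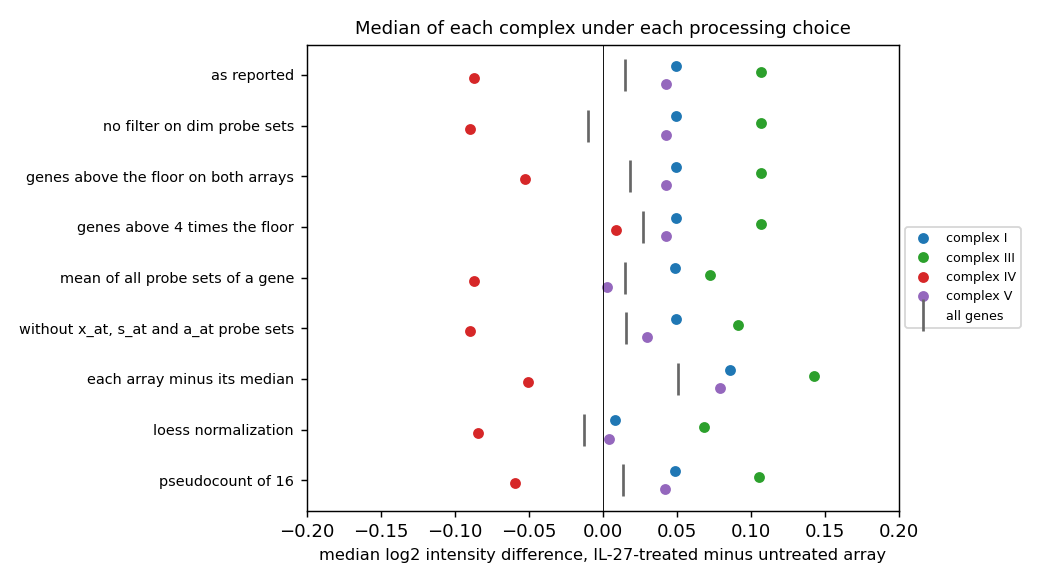
Median log2 difference, IL-27-treated minus untreated array (horizontal axis), of each complex and of all genes under each processing choice (rows). Complexes I, III and V stay above 0 in every row, by as little as 0.0030 for complex V, and complex IV is below 0 except over genes above 4 times the floor, where it is 0.0092.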

How the data were processed

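The deposited table holds linear intensity values, 1 for each probe set on each array, made by the authors with RMA per the submitters' processing notes. RMA corrects background, normalizes between arrays and summarizes probes, and differences between dim probe sets can come out smaller than they are. The sources used here do not give its version or settings. Gene symbols came from the platform annotation, where 18003 of 22716 probe sets had 1 symbol, 287 several and 4426 none listed. All 73 members' gene IDs were found in RefSeq (GRCm38.p6), with 0 symbols changed.

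Values were put on the log2 scale with no pseudocount. With 1 array per group no test was run, and a gene counted as higher or lower at 1.2-fold, 1.5-fold or 2-fold. The floor used 43 of 49 listed genes of other tissues. Genes named were, per complex, the 3 highest and 3 lowest, the brightest, core and F1 subunits, isoform sets and any at least 1.5-fold apart, and up to 4 per other list, with further members for completeness. The members and the 18 gene lists were chosen with earlier results of these data known. Alternatives covered the filter, the probe set, normalization (loess with a span of 0.4) and a pseudocount of 16. The procedure was tested on simulated data, with differences larger than the medians of the complexes added to genes well above the floor. That test thus does not bear on medians as small as those reported here. Python 3.11.15, numpy 2.4.6, pandas 2.3.3 and statsmodels 0.14.6 were used.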

Additional observations from a re-analysis of the deposited data

How the results depend on the processing

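The medians of complexes I, III and V kept their sign under all alternatives run, from 0.0083 to 0.086 for I, 0.068 to 0.14 for III and 0.0030 to 0.079 for V. That of complex IV ranged from -0.090 to 0.0092, and was 0.0092 over genes above 4 times the floor, where 4 of its dim isoforms drop out. The median over all members was -0.0020 after loess normalization, where that of all genes was -0.013. With the mean of all probe sets of a gene, the medians of all members and of all genes were both 0.015. In that setting complex V had 0.0030, below all genes. A sign kept against 0 is thus not a shift kept against all genes. Members at least 1.5-fold lower numbered 0 with genes above the floor on both arrays, with genes above 4 times the floor and with the pseudocount of 16. Without the x_at, s_at and a_at probe sets, whose designs may bind several transcripts, 52 members were left. Of these, 28 lay on the higher side, 2 of them past 1.5-fold. The shares of all genes in these settings were not computed, so these counts cannot be set against a background. Subtracting each array's median gave 11 members at least 1.2-fold higher and 2 lower, against 24.3% and 18.1% of all genes. Of 46 medians recomputed, 44 kept their sign. Leaving out Ndufs5-ps, moving Ndufa4 to complex IV and leaving out the tissue isoforms were chosen after seeing the data. No paired analysis was possible because each group has 1 array. The lack of replicates limits every value, and the dim isoforms of complex IV lie so near the floor that no direction can be read for them.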
